A study of Mus musculus with 22 samples.

Results

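The genes described here are the C/EBP family and the myeloid transcription factors that work beside it in mouse haematopoietic stem cells (HSCs). They were chosen by symbol from a list of 8 genes, and 7 of the 13594 genes in the deposited table carry one of those symbols: Cebpb, Cebpd, Cebpg, Cebpz, Spi1, Irf8 and Gfi1. The eighth, Cebpa, was not analysed here. RNA was sequenced from HSCs, sorted as KSL cells (no lineage markers, with Kit and Sca-1 on the surface) positive for CD150 and negative for CD48, from mice that lacked the tetraspanin CD53 (Cd53 KO) and from their wild-type (WT) littermates. G-CSF, the cytokine that raises granulocyte output and moves HSCs out of the marrow (granulocyte colony-stimulating factor), was given over 7 days, and control mice received saline. There are 6 groups of libraries: G-CSF spleen with 4 KO and 4 WT libraries, G-CSF bone marrow (BM) with 4 KO and 3 WT, and saline BM with 3 KO and 4 WT. The Cd53 allele, the strain, the age and the sex are not given in the labels, and neither is whether each library is 1 animal, so p-values measure the spread between these libraries, which may be technical. Spleen HSCs of saline-treated mice were not analysed here, so spleen was compared with BM only after G-CSF.

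C/EBP proteins are basic leucine zipper factors that bind DNA as dimers and drive granulocyte genes. PU.1, the product of Spi1, opens the enhancers of myeloid and lymphoid genes, IRF8 favours monocytes and dendritic cells over granulocytes, and GFI1 is a repressor that favours granulocytes and restrains HSC cycling. The G-CSF receptor signals through STAT3 and other kinase targets, and C/EBPβ is known for its part in emergency granulopoiesis, the raised output of granulocytes that infection or G-CSF sets off.

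Each library held between 22578088 and 31268856 reads over the listed genes, and 3 reads corresponded to between 0.0918 and 0.139 CPM (reads of a gene scaled to a common library total). Levels below are CPM as deposited, in which the authors added 0.5 read to each gene. Cd53 itself was lower in each KO library than in any WT library of the same setting: 6.18 to 6.40 against 9.51 to 9.77 log2 CPM in G-CSF spleen, 6.06 to 6.59 against 9.57 to 9.83 in G-CSF BM, and 2.02 to 3.61 against 5.75 to 6.18 in saline BM. All 11 genes on a list of HSC and sorting-gate markers (Kit, Ly6a, Slamf1, Procr and others) were listed, with summed levels of 2382 to 3740 CPM over the libraries, but 4 of the 11 were called higher and 1 lower after G-CSF in BM of each genotype. Cd48, the marker the sort was negative for, was at 388 to 462 reads in KO G-CSF BM against 82 to 178 in KO saline BM, and at 375 to 490 reads in WT G-CSF BM against 82 to 201 in WT saline BM (1.79 ± 0.31 in KO and 1.78 ± 0.31 in WT on the log2 scale). Flt3, a gene of multipotent progenitors, rose by 1.59 ± 0.33 in KO and 1.33 ± 0.33 in WT, Cd34 by 1.05 ± 0.13 in KO and 1.09 ± 0.13 in WT, and Ly6a by 0.55 ± 0.12 in KO and 1.16 ± 0.12 in WT, while Fgd5 fell by 0.58 in KO (-0.58 ± 0.14) and by 0.83 in WT (-0.83 ± 0.14). A gene was tested if it exceeded 1 CPM in at least 3 libraries, which left 13586 genes, and it was called when limma's moderated test gave a Benjamini-Hochberg adjusted p under 0.05 over those genes. Cebpg, Cebpz, Spi1, Irf8 and Gfi1 exceeded 1 CPM in all 22 libraries. Cebpd did so in 4 and Cebpb in 6, none of them saline libraries, so these genes passed the filter only through the G-CSF groups.

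Per kilobase of exon the order of the members was Cebpz, Cebpg, Spi1, Gfi1, Irf8, Cebpb and Cebpd, and the group means kept this order in each of the 6 groups. Averaged over the 22 libraries, Cebpz stood at 25.9 CPM per kb, Cebpg at 8.26, Spi1 at 5.83 and Gfi1 at 3.10. Irf8 stood at 1.17, Cebpb at 0.525 and Cebpd at 0.184 CPM per kb. Each pair of neighbours in this order was in the stated order in 21 or 22 of the 22 libraries. Cebpg and Cebpz thus lay above Cebpb and Cebpd in these cells, while Cebpa was not analysed here.

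Cebpd was the only one of the 7 genes called in any comparison, and the call was in KO BM: after 7 days of G-CSF it rose by 2.41 ± 0.48 on the log2 scale (SE, 95% interval 1.41 to 3.41, limma adjusted p = 0.0019). That is 1 call among 7 genes tested, where 9.87% of all genes were called (5.57% higher and 4.3% lower), so the count itself is near the background. Cebpd encodes C/EBPδ, an activating C/EBP that is low in resting cells and is induced by acute-phase cytokines through STAT3. It had 1.09, 0.923, 0.678 and 0.986 CPM in the KO G-CSF BM libraries, against 0.171, 0.169 and 0.170 CPM in the KO saline BM libraries. The groups did not overlap, and the lowest G-CSF library held 20 reads where each saline library held 4. The share of all genes whose groups do not overlap was not counted. Non-overlap here and below therefore describes the libraries only. A library with 4 reads has an exact Poisson 95% interval of 1.09 to 10.2 reads, which covers counting error only, so the SD of the saline libraries understates their error.

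In WT BM none of the 7 was called, Cebpd included, where 11.2% of all genes were called (5.62% higher and 5.62% lower). It had 0.707, 1.10 and 0.988 CPM in the WT G-CSF BM libraries, against 0.359, 0.420, 0.443 and 0.210 CPM in the WT saline BM libraries. These groups did not overlap either, and the difference was 1.41 ± 0.48 on the log2 scale (SE, 95% interval 0.41 to 2.41, limma adjusted p = 0.0624). The change in KO exceeded the change in WT by 1.0 ± 0.68 (limma adjusted p = 0.791 for the genotype by G-CSF interaction), so the responses of the genotypes were not shown to differ. The saline level was 1.02 lower on the log2 scale in KO than in WT (-1.02 ± 0.48, unadjusted p = 0.0466, limma adjusted p = 0.9998), which was not called. It rested on 4 reads in each KO saline library against 6 to 14 reads in the WT saline libraries. The G-CSF BM groups lay within 0.02 of each other (-0.01 ± 0.48, adjusted p = 0.993).

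Whether Cebpd was called turned on how the spread was estimated. Fitted on the compared groups alone, the KO change had an adjusted p of 0.0743. With no variance trend across expression levels the WT change had an adjusted p of 0.0029, and with sample weights 0.0419. Leaving out each of the 7 KO BM libraries in turn gave a KO change of 2.32 to 2.55 with adjusted p of 0.0024 to 0.0086. With no filter on low values the limma adjusted p in KO was 0.0019. The filter had left 13586 of the 13594 genes, so dropping it could change little. On the scale log2(CPM + 1), which shrinks the change of low genes, the KO and WT differences were 0.72 and 0.51.

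Cebpd in spleen HSCs after G-CSF was 0.517, 1.24, 0.599 and 0.661 CPM in KO spleen libraries and 0.805, 0.929, 1.09 and 0.889 CPM in WT spleen libraries. Each spleen library thus lay above each saline BM library of either genotype. Spleen differed from BM by -0.35 ± 0.45 in KO (limma adjusted p = 0.842) and by 0.01 ± 0.48 in WT (adjusted p = 0.991), and KO spleen differed from WT spleen by -0.38 ± 0.45 (adjusted p = 0.803). The authors' deposited table lists Cebpd as 1.89 higher on the log2 scale in KO G-CSF spleen than in KO saline BM (adjusted p = 0.0459) and as 1.27 higher in WT G-CSF spleen than in WT saline BM (adjusted p = 0.0105). Those comparisons share their saline libraries with the BM comparisons above, and they change tissue and treatment together. Ordered by mean, the 4 G-CSF groups came first, from WT spleen at -0.12 log2 CPM to KO spleen at -0.49, and neighbours among them differed by less than the larger SD of the pair. WT saline BM at -1.54 and KO saline BM at -2.56 followed, and these steps exceeded the larger SD. The step between the saline groups was not called (limma adjusted p = 0.9998). Each KO saline library held 4 reads, where the SD understates the error.

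**Figure D1:**
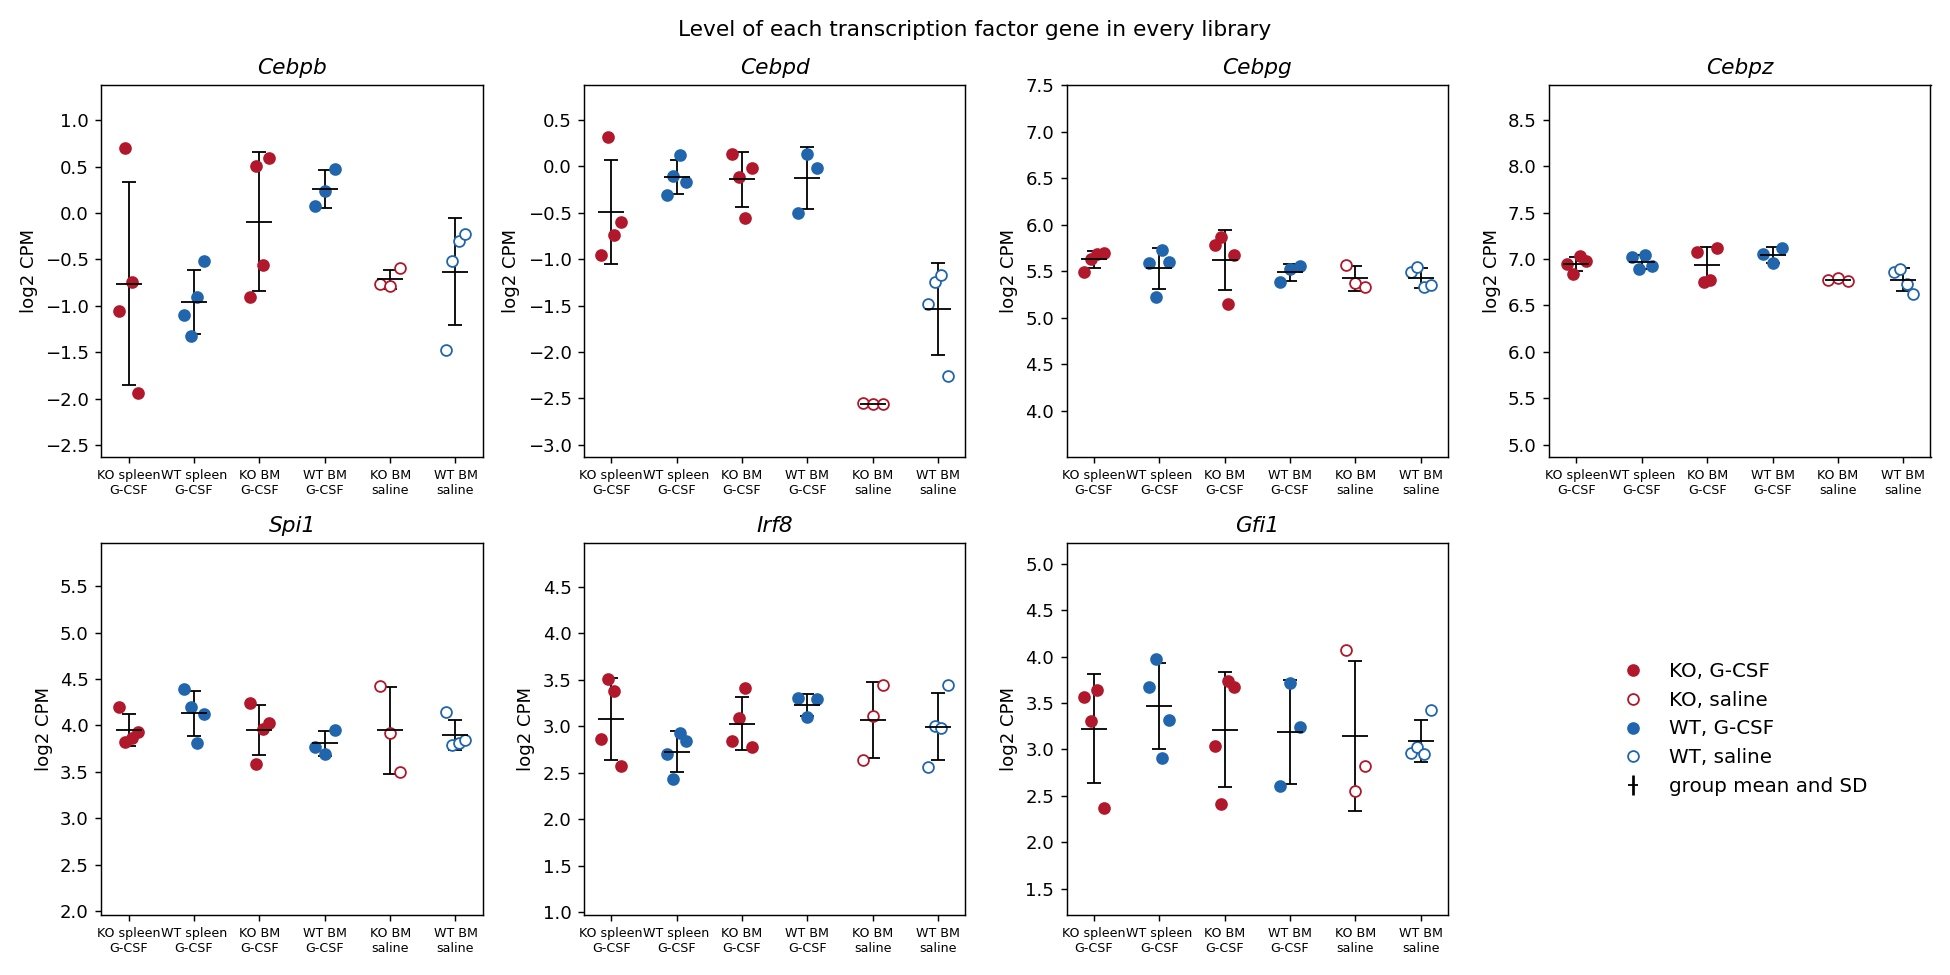
Level of each of the 7 genes in every library, as log2 CPM on the vertical axis (each panel spans the same number of log2 units). Points are libraries, grouped along the horizontal axis by genotype, tissue and treatment, and the bars are the group mean and SD. Cebpd is the gene whose saline libraries, at a mean of -2.56 in KO and -1.54 in WT, all sit below its G-CSF libraries. The group means of Cebpg, Cebpz and Spi1 lie closer together than those of Cebpd.

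Cebpd (ENSMUSG00000071637) lies on the plus strand at chr16:15887286-15891031 of mm10, and 562 of its 3746 exon bases, 15%, overlap exons of Spidr on the other strand. The strand setting of the counting is not given in the sources used here, so reads of that stretch cannot be assigned to either gene. Spidr itself differed between G-CSF and saline by 0.19 ± 0.15 in KO BM (limma adjusted p = 0.477) and by 0.28 ± 0.15 in WT BM (adjusted p = 0.264), and was called in neither.

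The genes whose levels most resembled Cebpd over the 22 libraries, among 11966 named genes searched, were Krt87 (Pearson r = 0.893), a hair keratin gene, Ccr1 (r = 0.892), a receptor for inflammatory chemokines, and Usp16 (r = 0.881), a histone H2A deubiquitinase. These are descriptions over libraries that share their groups.

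Sorted HSCs can carry a few cells of other types, and in bulk RNA more cells of a type and more RNA per cell cannot be told apart. Of 10 mature neutrophil markers 8 were listed, and their summed level was 6.93 to 28.6 CPM in KO G-CSF BM against 3.40 to 4.69 CPM in KO saline BM, and 6.06 to 24.1 CPM in WT G-CSF BM against 2.90 to 113 CPM in WT saline BM. The median change of the 8 after G-CSF was 2.06 in KO BM and 0.68 in WT BM on the log2 scale. Retnlg and Ltf were called higher in KO BM, 2 of 8, and none of 8 was called in WT BM by limma. The Ltf call was lost when any of 6 of the 7 KO BM libraries was left out. Retnlg was at 0 reads in all 3 KO saline BM libraries and 3 of 4 WT saline BM libraries, while Ngp was at 1 to 9 reads in KO G-CSF BM against 39 to 55 in KO saline BM. The WT saline BM library with the highest neutrophil sum, replicate 3 at 113 CPM, held 0.443 CPM of Cebpd, the highest Cebpd value of the 7 saline libraries and below each G-CSF library of BM.

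Other marker lists moved with G-CSF as well. Of 5 listed monocyte and macrophage markers, 1 was called higher and 2 lower in KO BM, and their sum was 7.26 to 9.89 CPM in KO G-CSF BM against 10.5 to 16.9 CPM in KO saline BM. In WT BM none of these 5 was called. Of 5 megakaryocyte markers, several of which HSCs express, 4 were called lower in each genotype, and the fifth, Itga2b, was called higher in WT BM (0.93 ± 0.19) and not called in KO BM. Of 3 listed T and NK cell markers, 1 was called higher in KO BM and 2 in WT BM. Of 4 mast cell and basophil markers, 1 was called higher and 1 lower in KO BM and 1 higher in WT BM, and of 5 dendritic cell markers 1 was called lower in each genotype. No listed B cell, erythroid or stromal and endothelial marker was called in either genotype by limma. The part of these and of the gate markers above in the Cebpd result was not tested.

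Cebpb, whose product C/EBPβ replaces C/EBPα in emergency granulopoiesis, was not called in any comparison. It had 0.535, 1.42, 0.678 and 1.51 CPM in KO G-CSF BM, against 0.590, 0.582 and 0.661 CPM in KO saline BM. It had 1.05, 1.18 and 1.39 CPM in WT G-CSF BM, against 0.359, 0.700, 0.810 and 0.855 CPM in WT saline BM. The WT groups did not overlap, which describes the libraries only, while 1 of the 4 KO G-CSF libraries lay below the KO saline libraries. The differences were 0.62 ± 0.57 in KO (limma adjusted p = 0.549) and 0.89 ± 0.57 in WT (adjusted p = 0.358), with 95% intervals of -0.55 to 1.79 and -0.28 to 2.06.

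In spleen HSCs Cebpb had 0.481, 1.62, 0.599 and 0.260 CPM in KO libraries, the widest spread of any group, and 0.468, 0.398, 0.534 and 0.700 CPM in WT libraries. All 4 WT spleen libraries lay below the 3 WT G-CSF BM libraries, a difference of -1.22 ± 0.57 (unadjusted p = 0.0417, limma adjusted p = 0.153). In KO the spleen libraries overlapped those of BM, at -0.67 ± 0.52 (adjusted p = 0.700), and the tissue difference was not shown to depend on genotype (0.55 ± 0.77, adjusted p = 0.787). Cebpb (ENSMUSG00000056501, chr2:167688915-167690418 of mm10, plus strand) shares 312 of its 1504 exon bases, 20.7%, with Tmem189 on the other strand. Tmem189 was not called with G-CSF in KO BM (-0.24 ± 0.26, adjusted p = 0.634) or in WT BM (-0.50 ± 0.26, adjusted p = 0.252).

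Cebpg and Cebpz, the abundant members, were not called in any comparison. C/EBPγ lacks a transactivation domain of its own and dimerises with other C/EBP and ATF4 proteins, and CEBPZ is a nucleolar protein of ribosome assembly that shares the family's name but not its leucine zipper. Cebpg had 55.2, 58.3, 35.4 and 51.1 CPM in KO G-CSF BM, against 47.5, 41.3 and 40.1 CPM in KO saline BM. In WT it had 41.8, 46.1 and 46.9 CPM in G-CSF BM, against 45.1, 46.6, 40.3 and 40.7 CPM in saline BM. These groups overlapped in both genotypes, with differences of 0.20 ± 0.14 in KO (limma adjusted p = 0.441) and 0.06 ± 0.14 in WT (adjusted p = 0.851). The WT difference turned to -0.02 when libraries were scaled to the listed genes.

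Cebpz had 135, 108, 109 and 139 CPM in KO G-CSF BM, against 109, 111 and 108 CPM in KO saline BM. It had 133, 124 and 139 CPM in WT G-CSF BM, against 117, 119, 106 and 98.7 CPM in WT saline BM. The WT groups did not overlap and the KO groups did. The differences were 0.15 ± 0.10 in KO (limma adjusted p = 0.362) and 0.26 ± 0.10 in WT (unadjusted p = 0.0130, adjusted p = 0.0885), neither of them called. In spleen Cebpg ranged from 45.0 to 51.8 CPM in KO and 37.2 to 53.2 CPM in WT, and Cebpz from 115 to 130.5 CPM in KO and 119 to 132 CPM in WT. Cebpg (ENSMUSG00000056216) lies at chr7:35046422-35056573 and Cebpz (ENSMUSG00000024081) at chr17:78919006-78937066 of mm10, both on the minus strand. Cebpz shares 171 of its exon bases, 3.67%, with Cebpzos on the other strand.

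Spi1, the PU.1 gene, was not called in any comparison. It had 18.9, 12.0, 15.6 and 16.3 CPM in KO G-CSF BM, against 21.5, 15.1 and 11.3 CPM in KO saline BM. It had 13.6, 13.0 and 15.5 CPM in WT G-CSF BM, against 17.7, 13.9, 14 and 14.4 CPM in WT saline BM. The groups overlapped in both genotypes, with differences of 0.01 ± 0.20 in KO (95% interval -0.40 to 0.41, limma adjusted p = 0.985) and -0.09 ± 0.20 in WT (95% interval -0.50 to 0.31, adjusted p = 0.826).

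In spleen Spi1 ranged from 14.1 to 18.4 CPM in KO and from 14 to 21 CPM in WT. WT spleen differed from WT BM by 0.33 ± 0.20 (limma adjusted p = 0.279), and KO spleen from KO BM by -0.00 ± 0.18 (adjusted p = 0.998). Spi1 (ENSMUSG00000002111) lies on the plus strand at chr2:91082390-91115756 of mm10.

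Irf8 showed its widest differences between tissues of WT mice. It had 6.50, 5.40, 7.63 and 7.17 CPM in WT spleen, against 9.85, 8.54 and 9.76 CPM in WT G-CSF BM. The groups did not overlap, but the difference of -0.50 ± 0.25 was not called (unadjusted p = 0.0573, limma adjusted p = 0.185). In KO the spleen libraries, at 7.26, 11.4, 10.4 and 5.95 CPM, overlapped the BM libraries at 7.14, 8.47, 10.6 and 6.87 CPM. The interaction of genotype and tissue was 0.55 ± 0.34 (adjusted p = 0.490), so the tissue difference was not shown to depend on genotype.

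With G-CSF, Irf8 in BM differed from saline by -0.04 ± 0.25 in KO (limma adjusted p = 0.947) and by 0.23 ± 0.25 in WT (adjusted p = 0.621). The saline libraries held 6.23, 8.66 and 10.9 CPM in KO and 5.89, 8.01, 7.88 and 10.9 CPM in WT, a range that covered every G-CSF BM library. Irf8 (ENSMUSG00000041515) lies on the plus strand at chr8:120736358-120756694 of mm10. RefSeq gave 2 promoter windows for it, each from 250 bases before to 50 after a start, and the upstream one holds 2 matches to the STAT motif TTCNNNGAA, which reads the same on either strand. They are shown in capitals because the G-CSF receptor acts through STAT factors, within chr8:120736172-120736228 of GRCm38.p6, plus strand, 186 to 130 bases before the start.
Irf8: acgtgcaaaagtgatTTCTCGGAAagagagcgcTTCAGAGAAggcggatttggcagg
The other window held none, and at least 1 such match was present in 8.30% of the 32851 promoter windows of that length, counted per window. A match describes the letters and shows no binding, and Irf8 RNA was not called with G-CSF.

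Gfi1 varied most between libraries of the same group among the moderately expressed members, except in WT saline BM. There its SD was 0.23 on the log2 scale, and that of Irf8 was 0.36. It had 8.21, 5.31, 13.3 and 12.7 CPM in KO G-CSF BM, against 16.7, 5.88 and 7.05 CPM in KO saline BM. It had 6.08, 13.1 and 9.46 CPM in WT G-CSF BM, against 7.80, 8.14, 7.75 and 10.8 CPM in WT saline BM. All groups overlapped, and the differences of 0.07 ± 0.38 in KO (limma adjusted p = 0.942) and 0.09 ± 0.38 in WT (95% interval -0.69 to 0.87, adjusted p = 0.914) leave room for changes of over 0.6 in either direction. In spleen Gfi1 had 11.9, 9.88, 12.5 and 5.19 CPM in KO and 12.8, 15.7, 7.5 and 9.93 CPM in WT, and WT spleen differed from WT BM by 0.28 ± 0.38 (adjusted p = 0.659).

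Gfi1 (ENSMUSG00000029275) lies on the minus strand at chr5:107716657-107726036 of mm10, and 101 of its exon bases, 3.17%, overlap A430072P03Rik on the other strand. Of its 2 promoter windows, 1 holds a match to the C/EBP motif TTNNGCAA, searched on both strands, which 10.8% of all promoter windows hold, counted per window. It is shown because Gfi1 is listed among C/EBP targets, within chr5:107725926-107725963 of GRCm38.p6, minus strand, 158 to 121 bases before the start, with the match to the motif's reverse complement in capitals.
Gfi1: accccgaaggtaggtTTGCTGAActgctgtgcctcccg
Windows were given for 4 of the 7 genes, and for Cebpb, Cebpg, Irf8 and Gfi1 together 6 windows were searched. No window of Cebpb or Cebpg held the C/EBP motif, the STAT motif or the PU.1 motif GAGGAAGT, which is in 3.20% of all windows, and the absence of these letters says nothing of the factors.

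Loss of CD53 was not accompanied by a called change in any of the 7 genes in any setting. In saline BM 0 of 7 were called by limma against 0.00736% of all genes tested, with 1 of 7, Cebpd, at an unadjusted p under 0.05. In G-CSF BM 0 of 7 were called against a background of 0.147%, with none at an unadjusted p under 0.05. In G-CSF spleen 0 of 7 were called against a background of 0.0147%, again with none at an unadjusted p under 0.05. The same tests by voom on the recovered reads called 0 of 7 in each setting. These backgrounds depend on the setting: 20 genes were called between KO and WT in G-CSF BM, but 502 without KO G-CSF BM replicate 3, and 1, 3 and 7 without KO G-CSF BM replicate 2, KO G-CSF BM replicate 1 and WT G-CSF BM replicate 3, and 2 were called in spleen, but 309 with sample weights and 31 without WT spleen replicate 3. In saline BM 1 gene was called, and 6 without KO saline BM replicate 2. None of the 7 was called under any of these.

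The sizes were small for the 5 genes outside Cebpb and Cebpd. Their KO minus WT differences on the log2 scale ran from -0.01 to 0.07 in saline BM, from -0.20 to 0.15 in G-CSF BM and from -0.24 to 0.35 in G-CSF spleen. The widest bounds of their 95% intervals were -0.73 and 0.83 in saline BM and -0.75 and 0.81 in G-CSF BM. In G-CSF spleen they were -0.97 and 0.83. These bounds were those of Gfi1, except the upper bound in G-CSF spleen, which was that of Irf8. The largest point differences in G-CSF spleen and G-CSF BM beyond Cebpd were those of Irf8 in spleen (0.35 ± 0.23, adjusted p = 0.574) and Cebpb in BM (-0.35 ± 0.57, adjusted p = 0.821). Over the 7 genes the median difference was -0.00 in saline BM, -0.01 in G-CSF BM and -0.02 in G-CSF spleen, and the median of all genes was -0.00 in each.

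With G-CSF 1 of 7 was called in KO BM, against 9.87% of all genes tested, and 0 of 7 in WT BM, against 11.2%. At an unadjusted p under 0.05 the counts were 1 in KO BM and 2 in WT BM, Cebpd and Cebpz. Voom called 1 of 7 in KO BM and 0 of 7 in WT BM. The median change of the 7 was 0.15 in KO and 0.23 in WT, beside medians of -0.01 and -0.01 for all genes. Between spleen and BM, 0 of 7 were called in KO against 1.27% of all genes and 0 of 7 in WT against 13.7%, with none and 1 (Cebpb) at an unadjusted p under 0.05. No gene was called in either interaction, a background of 0%, and none of the 7 had an unadjusted p under 0.05 there. Without KO G-CSF BM replicate 3, 245 genes were called in the genotype by tissue interaction, and without KO saline BM replicate 2, 7 in the genotype by G-CSF interaction, none of them among the 7. The background of spleen against BM in WT, 1867 genes, was 674 without WT G-CSF BM replicate 1, 980 without replicate 3, 1058 and 1078 without WT spleen replicates 2 and 1, and 2857 with sample weights. In KO it was 172 genes, and 97 to 110 when any of the 4 KO spleen libraries was left out. After G-CSF it was 1341 genes in KO, 865 without KO saline BM replicate 1 and 1910 without KO G-CSF BM replicate 3. In WT it was 1528 genes after G-CSF, 969 without WT G-CSF BM replicate 3 and 2235 with sample weights.

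**Figure D2:**
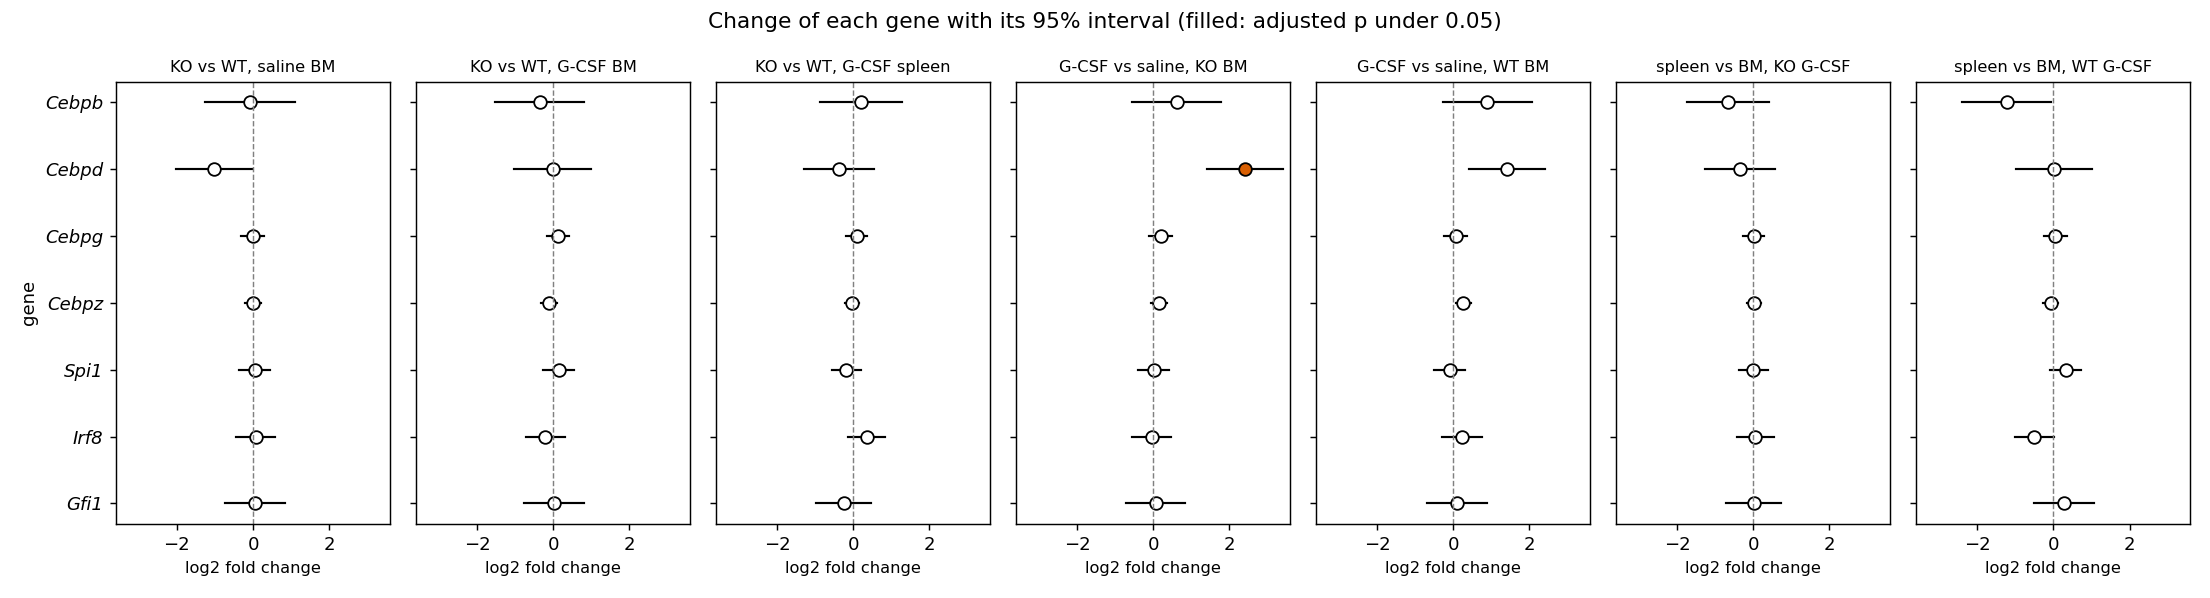
Log2 fold change of each gene (rows) in the 7 comparisons (panels), with the first-named group over the other. Points are limma estimates, lines are 95% intervals, and a filled point has an adjusted p under 0.05. The only filled point is Cebpd after G-CSF in KO BM, at 2.41, and the intervals of Cebpb, Cebpd and Gfi1 are wider than those of Cebpg and Cebpz.

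Partners, regulators and known targets of these factors were described from 6 lists. On them 96 distinct genes were tested, including some of the 7 themselves. In BM after G-CSF 28 of the 96 were called in KO (20 higher and 8 lower) and 25 of the 96 in WT (19 higher and 6 lower), against 9.87% and 11.2% of all genes. The lists were chosen with earlier results of these data known and include Socs3, Stat3 and Csf3r, genes of G-CSF signalling. Their shares are therefore a description and no test against all genes. None of the 96 was called by limma between KO and WT in any setting, with 7 in saline BM, 7 in G-CSF BM and 9 in spleen at an unadjusted p under 0.05. None was called in the genotype by G-CSF interaction, with 5 at an unadjusted p under 0.05.

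Of 19 C/EBP partners and regulators, 4 rose and none fell in KO BM (median 0.09), and 3 rose and none fell in WT BM (median 0.06). Socs3, the feedback inhibitor of G-CSF receptor signalling, rose by 4.23 ± 0.24 in KO and 5.23 ± 0.24 in WT. Stat3, the receptor's main transcription factor, rose by 0.66 ± 0.13 in KO and 0.93 ± 0.13 in WT, and Csf3r, the receptor, by 1.09 ± 0.20 in KO and 1.09 ± 0.20 in WT. Junb, an AP-1 subunit that can pair with C/EBP proteins, was called in KO (1.56 ± 0.43, adjusted p = 0.0207) and not in WT (1.21 ± 0.43, adjusted p = 0.0714). The KO call of Junb was lost when KO saline BM replicate 1 or 3 or KO G-CSF BM replicate 1 or 3 was left out, at adjusted p of 0.0983, 0.0749, 0.0524 and 0.0533.

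Of 34 partners and regulators of PU.1, IRF8 and GFI1, 4 rose and 5 fell in KO BM (median 0.02), and 5 rose and 4 fell in WT BM (median -0.14). Id2, an inhibitor of helix-loop-helix factors, rose by 0.99 ± 0.17 in KO and 0.74 ± 0.17 in WT. Ets1, an ETS factor of the same family as PU.1, rose by 0.97 ± 0.17 in KO and 0.58 ± 0.17 in WT, and Fli1, another, by 0.35 ± 0.09 in KO and 0.39 ± 0.09 in WT. Lmo2, a bridging protein of the stem cell GATA complexes, fell by 0.44 in KO (-0.44 ± 0.12) and by 0.64 in WT (-0.64 ± 0.12). Irf1, an interferon-response factor, fell by 0.45 in KO (-0.45 ± 0.10) and by 0.33 in WT (-0.33 ± 0.10).

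Egr1, an immediate early factor of the same list, fell by 1.62 in KO (-1.62 ± 0.42, adjusted p = 0.0153) and by 2.15 in WT (-2.15 ± 0.42). Without KO saline BM replicate 2 its KO change was -1.08 with an adjusted p of 0.138, and the KO count of this list went to 5 called of 34. The GATA factors differed in their calls: Gata1, which opposes PU.1, was called in WT (1.75 ± 0.26) and not in KO (0.67 ± 0.26, adjusted p = 0.113), while Gata2 was called in KO (-1.02 ± 0.19) and not in WT (-0.29 ± 0.19, adjusted p = 0.363). Neither had a called interaction with genotype.

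Of 13 C/EBP target genes of granulocyte progenitors, 4 rose and none fell in each genotype, with medians of 1.09 in KO and 0.40 in WT. Prtn3, a serine protease of neutrophil granules, rose by 1.03 ± 0.16 in KO and 1.37 ± 0.16 in WT, and Mgst1, a glutathione transferase, by 0.83 ± 0.17 in KO and 0.69 ± 0.17 in WT. Ms4a3, a granulocyte and monocyte progenitor gene, was called in WT (1.69 ± 0.44, adjusted p = 0.0143) and not in KO (1.35 ± 0.44, adjusted p = 0.0549). Without WT G-CSF BM replicate 2 the WT count was 2, with Mgst1 at 0.51 (adjusted p = 0.0786) and Ms4a3 at 1.63 (adjusted p = 0.0526). Ms4a3 was also uncalled without WT saline BM replicate 2 (adjusted p = 0.0576) or WT G-CSF BM replicate 3 (adjusted p = 0.0651). The list shares Ltf, called higher in KO, and other granule genes with the neutrophil markers above. The KO count was 3 to 4 when libraries were left out in turn, with the losses of the Ltf call given above. Under the alternative fits the limma adjusted p of Ltf in KO BM ran from 0.0124 to 0.228.

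Of 19 PU.1 target genes, 8 rose and 3 fell in KO BM (median 0.04), and 7 rose and 2 fell in WT BM (median 0.38). Itgam, the αM integrin of myeloid cells, rose by 2.24 ± 0.22 in KO and 2.33 ± 0.22 in WT, and Csf2rb, the shared β chain of the GM-CSF and IL-3 receptors, by 1.47 ± 0.17 in KO and 1.52 ± 0.17 in WT. Fcer1g, the Fc receptor γ chain, fell by 1.12 in KO (-1.12 ± 0.12) and by 0.85 in WT (-0.85 ± 0.12). Without KO saline BM replicate 3 the KO count was 7 of 19. PU.1 targets thus changed in both directions while Spi1 RNA was not called.

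Of 8 listed IRF8 target genes, 1 rose and none fell in each genotype: Ctss, a lysosomal cathepsin, by 1.70 ± 0.15 in KO and 1.88 ± 0.15 in WT. Of 14 genes that GFI1 is known to repress, 2 rose and 1 fell in each genotype. The risers were Id2, above, and Cdkn1a, the cell cycle inhibitor p21, which rose by 1.84 ± 0.33 in KO and 1.57 ± 0.33 in WT, and the gene that fell was Egr1. The 6 lists share genes, Csf3r being on 3 of them, so their counts are not separate.

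**Figure D3:**
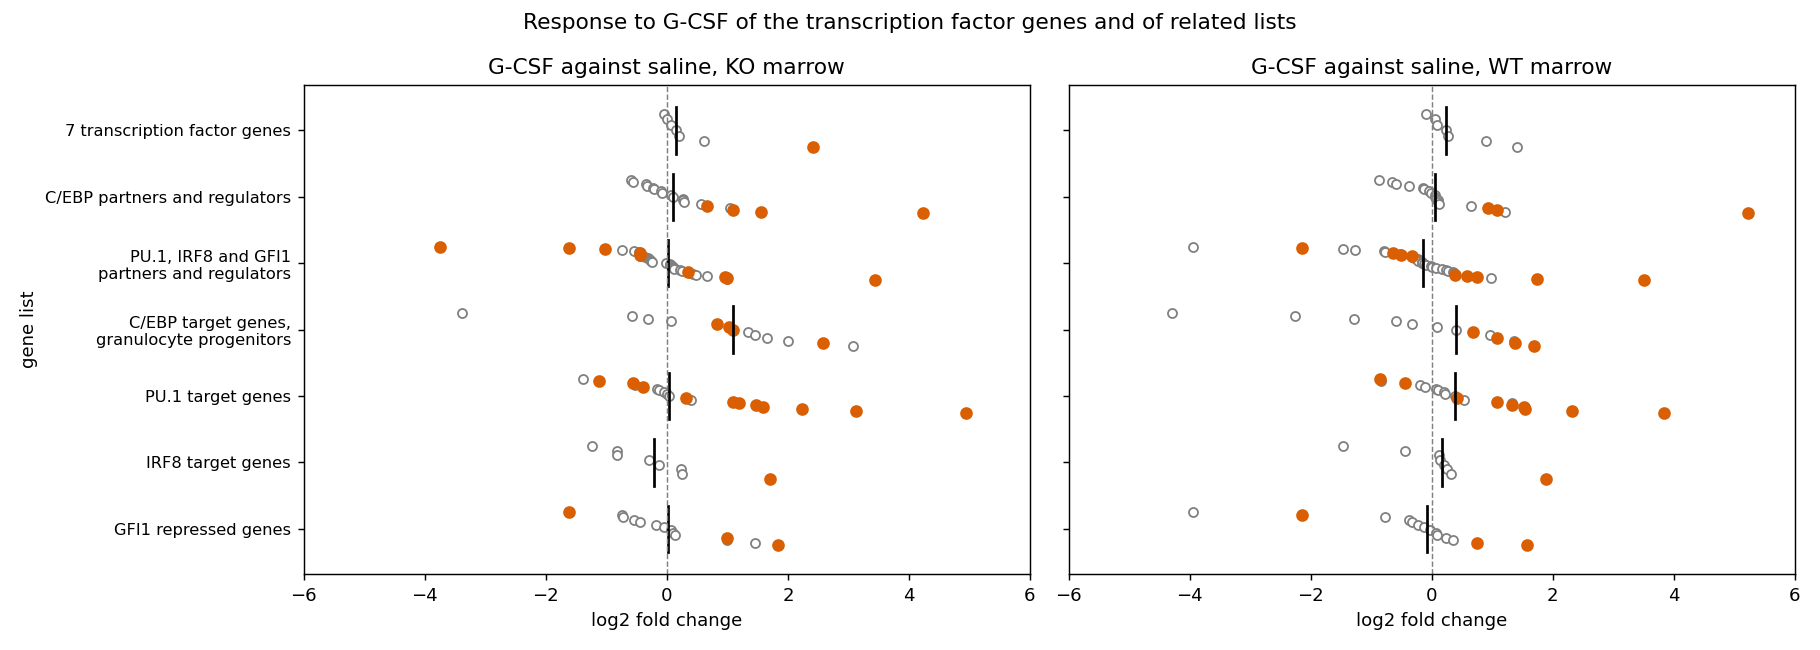
Log2 fold change after G-CSF over saline in BM for the 7 transcription factor genes and for 6 related lists (rows), in KO (left) and WT (right). Each point is a gene, filled points have a limma adjusted p under 0.05, and the vertical bar is the list's median. Of the 7 genes only Cebpd in KO, at 2.41, is filled, while the C/EBP partners include Socs3 at 4.23 in KO and 5.23 in WT.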

How the data were processed

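RNA of sorted HSCs was prepared with a low-input total RNA kit and a SMARTer Ultra Low library kit, per the labels' protocols. Per the submitters' processing notes, tools included limma, edgeR, Salmon 0.8.2, featureCounts 1.4.6-p5 (Subread), STAR 2.5.1a and bcl2fastq, with mm10 as the build; no parameters are given. The authors deposited log2 CPM per library. Every value gave a whole read number plus 0.5 (100% within a tolerance of 0.05), over an effective library size 0.938 to 1.056 times the listed total. The deposited table also holds the authors' own comparisons (log2 fold change, p-value and its adjusted form), used only where named, and its fold columns (linear ratio) were not used. Of 13645 lines 51 repeated a gene with the same values and were dropped, and 19 symbols stored as dates were looked up by ID.

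Group means of the 22 libraries were fitted on the deposited log2 values with limma 3.58.1 (variance trend, R 4.3.3), over genes above 1 CPM in at least 3 libraries, with Benjamini-Hochberg adjustment within each comparison and a threshold of 0.05. The method was tested on simulated data for the comparison of G-CSF with saline in WT BM only, with the changed genes drawn at random. That did not test genes at low read numbers, such as Cebpd, on their own, nor the interactions. Alternatives were the compared groups only, no variance trend, sample weights, scaling to the listed genes, voom on the recovered reads, no filter, log2(CPM + 1), a replicate block and leaving out each library. Named genes were all members, up to 4 genes per list with the smallest p in a comparison, and the 3 genes most like any called member. Members and lists were chosen with earlier results of these data known. Positions, exon lengths and overlaps are from GENCODE M21 and promoter sequences from RefSeq on GRCm38.p6; CPM per kb divides by merged exon length.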

Additional observations from a re-analysis of the deposited data

Results flagged for a closer look

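Among the 28 sets formed by the 7 genes and the 4 groups of 4 libraries, 2 libraries stood apart from the other 3 of their group by Dixon's criterion, which chance alone meets in about 1 set in 20. Spi1 was high in WT saline BM replicate 1, at 4.14 log2 CPM, and Gfi1 was high in WT saline BM replicate 4, at 3.43 log2 CPM. Each of the 7 WT BM libraries, flagged or not, was left out in turn. The Spi1 difference between G-CSF and saline in WT BM then stayed within -0.16 to -0.01, and that of Gfi1 ran from -0.17 to 0.39. These ranges are over all the omissions and do not give the effect of the flagged library alone.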

How the results depend on the processing

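The number of the 7 genes called changed under 3 settings: it was 0 rather than 1 for G-CSF in KO BM when the compared groups were fitted alone, and 1 rather than 0 for G-CSF in WT BM with no variance trend and with sample weights. In each case the gene was Cebpd, and its own values are given in the report. Reversals of sign were all of uncalled differences. Scaling to the listed genes gave -0.016 for Cebpg in WT BM and -0.057 for Spi1 in KO BM after G-CSF, and sample weights gave -0.0099 for Spi1 in KO BM. Leaving out each library in turn gave, for G-CSF in KO BM, -0.22 to 0.25 for Spi1, -0.25 to 0.15 for Irf8 and -0.23 to 0.53 for Gfi1, and for Gfi1 -0.17 to 0.39 for G-CSF in WT BM and -0.011 to 0.54 for spleen in WT. The cause was not tested. Fitting the compared groups alone also gave 5 called PU.1, IRF8 and GFI1 partners and 7 called PU.1 targets in KO BM, and removed the KO calls of Junb and Irf1. IRF8 targets called were 2 rather than 1 in KO BM under that fit, scaling to the listed genes, voom, log2(CPM + 1) and the replicate block, and in WT BM with sample weights. Scaling to the listed genes split the genes called after G-CSF into 588 higher and 799 lower in KO BM and 556 and 1047 in WT BM, as it shifts the median of all genes to -0.07 and -0.09. Counts over all genes also moved with the fit: with the compared groups only they were 613 for G-CSF in KO BM, 78 for spleen in KO and 3 for KO against WT in G-CSF BM, and for this last comparison 1 with no variance trend, 8 with sample weights, 11 by voom and 31 with the replicate block, which gave 1042 for spleen in WT.

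Replicate numbers are shared across groups, and the labels do not say whether a number marks a shared animal or batch. Same-numbered BM and spleen libraries of a genotype had correlated deviations of -0.01 to 0.15 over 7 pairs (median 0.044, against -0.026 for different numbers), not all above 0.1, so the numbers were not taken to pair the libraries. That rule cannot show that pairing is absent. For saline and G-CSF libraries of a genotype the medians were 0.051 for same and -0.021 for different numbers. Across genotypes they were -0.004 and 0.010. A batch shared by number was not tested. With the replicate block 1 of the 7 was called for G-CSF in KO BM (Cebpd, 2.48) and 0 in WT BM, and no member's call changed. Depth limits Cebpd and Cebpb most, at 4 to 41 reads per library.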
